A study of Mus musculus with 25 samples.

Results

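The adult esophagus of mice homozygous for an activating mutation in NRF2 was compared, across all genes, with the adult esophagus of mice that lost KEAP1. The 8 libraries compared, 4 of each genotype, were chosen by their genotype labels out of the 25 libraries of the series. The homozygotes (NRF2L30F/L30F::K5CreERT2) carried the knock-in on both alleles of Nfe2l2, the gene for NRF2. In the KEAP1-deficient mice (KEAP1flox/flox::K5CreERT2) both alleles of Keap1 were floxed. In both genotypes a tamoxifen-dependent Cre recombinase, CreERT2, was under control of the keratin 5 promoter, so recombination was directed to squamous epithelium and not to muscle, connective tissue or immune cells of the esophagus. All 8 libraries came from mice aged 6 to 9 weeks, taken 1 week after tamoxifen at 100 µg per g. The same fit held 4 wild-type libraries and 4 libraries of heterozygotes (NRF2L30F/+::K5CreERT2) of the same age and treatment. The genotype given for wild type has no Cre. K5CreERT2 stands in the sample titles of all adult libraries, wild type included, where it may only name the experiment. A second table held the same mutants as pups of 7 to 10 days, with Cre active without tamoxifen (NRF2L30F/L30F::K5Cre and KEAP1flox/flox::K5Cre, 3 libraries each) and 3 wild-type libraries.

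NRF2 is the transcription factor that switches on genes for glutathione synthesis, thiol reduction, detoxification and NADPH supply, through antioxidant response elements that it binds with a small MAF partner. KEAP1 is the adaptor that holds NRF2 at its DLG and ETGE motifs and hands it to the CUL3 ubiquitin ligase for degradation. The L30F substitution lies in the DLG motif and is found in human cancers, whereas Keap1 deletion removes the adaptor itself. The squamous epithelium in which the 2 lesions were made is built from a basal layer that expresses Krt5, Krt14 and Krt15 and suprabasal layers that express Krt4 and Krt13, and it expresses Krt6a, Krt6b, Krt16 and Krt17 when injured or inflamed.

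Values below are normalised reads, that is, reads divided by the size factor of the library. Each log2 fold change is homozygotes minus KEAP1-deficient mice on the log2(value + 1) scale, which understates changes of low genes, and adjusted p-values are from limma over all genes tested. A fold given for a single gene is instead a ratio of group means of normalised reads, unless a floor is named. It can therefore differ from the log2 fold change beside it. Counts of genes at 2-fold or 8-fold use the log2 fold change. Whether each library came from an animal of its own is not stated in the labels, so the p-values measure only library-to-library spread, which may be technical. Depth differed with genotype, from 10.9 to 11.6 M reads in the homozygotes and from 22.5 to 31.3 M in the KEAP1-deficient libraries, so depth and genotype cannot be told apart. With every library thinned to the same depth, 4595 genes were called in place of 5248. Wild-type libraries had 27.5 to 32.3 M reads and heterozygotes 12.8 to 16.9 M. Comparisons of the homozygotes with wild type therefore carry the same limit. The 6 squamous markers Krt5, Krt14, Krt15, Trp63, Krt4 and Krt13 were detected in all 8 libraries, the lowest value being 202 for Krt15 in a KEAP1-deficient library.

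The 2 mutants differed widely. Of 19857 genes tested, 5248 were called at an adjusted p under 0.05 (26.4%), 2568 higher (12.9%) and 2680 lower (13.5%) in the homozygotes. The 4 and 4 libraries did not overlap for 5914 genes (29.8%), of which 4536 were called. At 2-fold or more 771 called genes were higher and 942 lower, and at 8-fold or more 35 were higher and 142 lower. The median log2 fold change over all genes tested was -0.02. In the same fit 4420 genes (22.3%) separated the homozygotes from wild type and 9290 (46.8%) separated the KEAP1-deficient mice from wild type. These last 2 comparisons share the wild-type libraries. The scatter of gene levels shows the called genes on both sides of the diagonal.

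**Figure D1:**
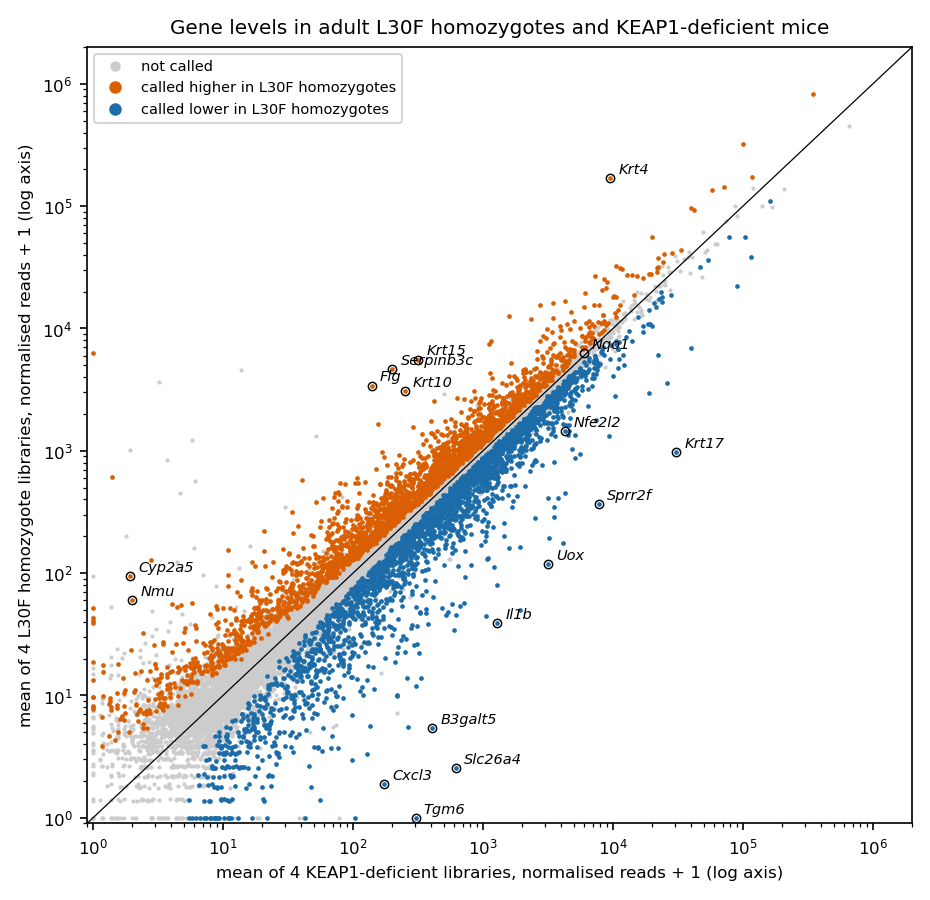
Mean normalised reads + 1 of each gene in the 4 KEAP1-deficient libraries (x, log axis) and the 4 L30F homozygote libraries (y, log axis), with the line of equality. Orange points are the 2568 genes called higher and blue points the 2680 called lower in the homozygotes. Slc26a4, at 1.56 against 620 normalised reads, lies far below the line, and Krt15, at 5562 against 318, far above it.

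Read shares of muscle and leukocyte marker lists differed between the mutants. Of 22 striated muscle genes, 18 were higher in the homozygotes and 1, Tnnt1, was lower, with a median log2 fold change of 1.27. Summed, this list took 7.14 to 9.53% of reads in the homozygotes, 2.75 to 3.95% in the KEAP1-deficient libraries and 7.08 to 8.39% in wild type. Mb, the oxygen store of muscle, had 13000, 18000, 12960 and 20250 normalised reads in the homozygotes and 3414, 3506, 3127 and 3715 in the KEAP1-deficient libraries, so the groups were far apart (log2 fold change 2.20, SE 0.14, adjusted p = 6.63e-08). Ckm, muscle creatine kinase, was 2.98-fold higher and Tnni2, a fast-muscle troponin, 2.66-fold. Nos1, neuronal nitric oxide synthase, was 4.30-fold higher but belongs to the nerve and glia list. Of 12 genes on that list 2 were higher and 0 lower (median 0.21), against 12.9% higher over all genes tested. In RNA from whole tissue, fewer cells of a type and less RNA per cell cannot be told apart. Of 9 mitochondrially encoded genes 7 were higher and 1 lower, with mt-Nd2 1.51-fold higher. Of 10 smooth muscle genes 4 were higher. That count was 7 without heterozygote library 3 and 9 without KEAP1-deficient library 1.

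Leukocyte genes went the other way, with 13 of 25 lower and 1 higher in the homozygotes and a median of -0.98. They summed to 0.0292 to 0.0512% of reads in the homozygotes, 0.0594 to 0.0737% in the KEAP1-deficient libraries and 0.0168 to 0.0290% in wild type. None of these 25 genes was at 0 throughout a group. When 1 library was left out, 9 to 13 of these genes were lower. Of 14 fibroblast and matrix genes 4 were lower, among them Col1a1, a chain of fibrillar collagen, at 48190, 63140, 62140 and 51140 against 86780, 119400, 100800 and 109300. That count was 2 without homozygote library 1 or KEAP1-deficient library 2 or 4. Over all genes tested 13.5% were lower, a share that 2 of 14 does not exceed by much. The fibroblast list summed to 1.58 to 2.36% of reads in the homozygotes and 2.32 to 3.12% in the KEAP1-deficient libraries.

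When the mean log2 level of the striated muscle genes entered the model as a covariate, 76 genes were called in place of 5248, 45 higher and 31 lower. The muscle level does not overlap between the 2 genotypes, so in this model it and the genotype largely stand for each other. Of the 109 called genes among the 116 described here, 18 were still called, and all 109 kept their direction. The 18 were Nfe2l2, Keap1, Akr1b8, Cyp2s1, Krt13, Krt15, Serpinb12, Csta1, Mt4, Barx2, Pax9, Sox2, Slc26a4, Tgm6, Csn1s1, Nmu, Mb and Gm94. How far muscle content contributes to the other differences was not tested.

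**Figure D2:**
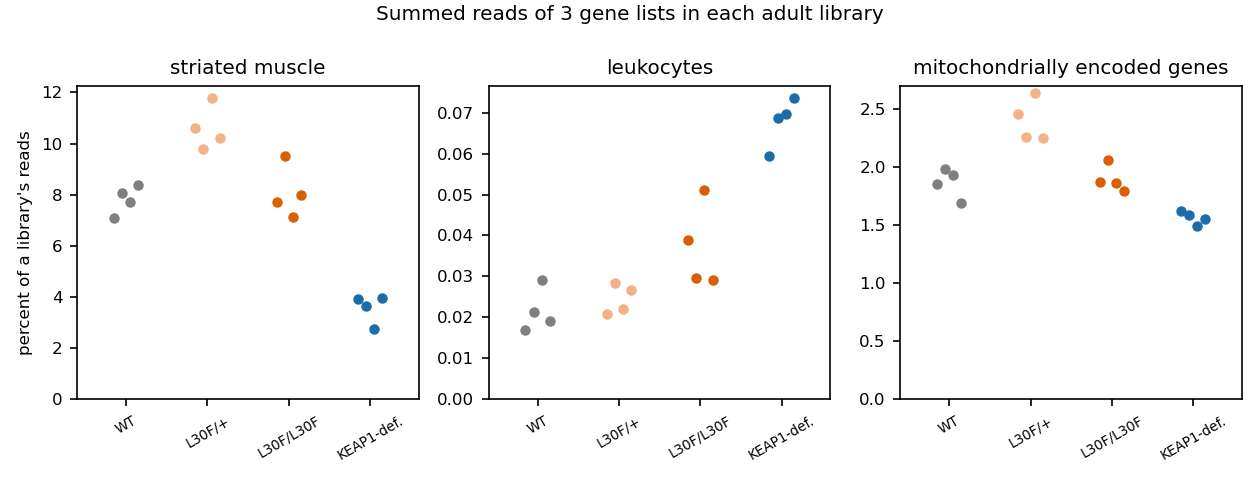
Percent of a library's reads that fall on the striated muscle, leukocyte and mitochondrially encoded lists (y, linear axis from 0) in wild type (WT), L30F heterozygotes (L30F/+), L30F homozygotes (L30F/L30F) and KEAP1-deficient adults (KEAP1-def.), 1 point per library. For striated muscle the 4 homozygote libraries, at 7.14 to 9.53%, lie above the 4 KEAP1-deficient libraries, at 2.75 to 3.95%, and for leukocytes they lie below them.

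The genes of the 2 lesions differed in level. Keap1 (ENSMUSG00000003308) had 1387, 1225, 1172 and 1294 normalised reads in the homozygotes and 732, 812, 721 and 765 in the KEAP1-deficient libraries, without overlap (log2 fold change 0.74, SE 0.07, adjusted p = 4.69e-06). The wild-type mean was 1148, so reads of Keap1 remained in the KEAP1-deficient tissue. Nfe2l2 (ENSMUSG00000015839) had 1806, 1618, 1204 and 1199 in the homozygotes against 4231, 4209, 4403 and 4364. The homozygotes were thus lowest of the adult groups, below wild type at 5662 ± 371 (SD, n = 4) and heterozygotes at 3565 ± 386 (SD, n = 4). Nfe2l2 was 2.95-fold higher in the KEAP1-deficient libraries (log2 fold change -1.58, SE 0.12, adjusted p = 3.14e-07). Nfe2l1, which encodes the related factor NRF1, was higher in the homozygotes, at 9107 to 11240 against 5835 to 7095 (log2 fold change 0.65, SE 0.08, adjusted p = 3.16e-05). Over all 13 listed genes of NRF2, KEAP1 and their partners 4 were higher (Keap1, Cul3, Nfe2l1 and Bach2) and 3 lower (Nfe2l2, Nfe2l3 and Mafg). The shares over all genes tested were 12.9% higher and 13.5% lower. Gene-level values do not show the substitution.

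Genes listed for glutathione synthesis, thiol reduction and detoxification included some not called, some lower and some higher in the homozygotes. Whether each is an NRF2 target in this tissue was not tested. Nqo1 (ENSMUSG00000003849), a quinone reductase and the standard readout of NRF2 activity, had 6815, 5515, 4833 and 8055 normalised reads in the homozygotes and 6333, 6156, 5766 and 5546 in the KEAP1-deficient libraries, against a wild-type mean of 1088. The groups overlapped (log2 fold change 0.06, SE 0.13, adjusted p = 0.782). The 2 subunits of glutamate-cysteine ligase also overlapped. Gclc had means of 22170 and 22980 (adjusted p = 0.764) and Gclm 4854 and 4593 (adjusted p = 0.617). A p above the threshold does not show equal levels, but in each of these 3 genes the SE was at most 0.15 on the log2 scale. Of the genes in this paragraph and the next, Gclc, Gclm and Slc7a11 were named after their values were seen.

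Some genes of cystine import, thiol reduction and iron storage were lower in the homozygotes, a minority of the first 2 lists. Slc7a11, the cystine importer, had 37090, 32480, 26630 and 31550 against 54150, 45540, 41320 and 44580, while wild type had a mean of 1210 (log2 fold change -0.54, SE 0.12, adjusted p = 0.00332). Its partner chain Slc3a2 was 1.37-fold and glutathione reductase Gsr 1.97-fold higher in the KEAP1-deficient libraries. For Gsr the values were 2032, 1481, 1232 and 1988 against 3896, 3140, 3023 and 3171. Of 13 cystine and glutathione genes, 3 were lower and 1, Cbs of the transsulfuration route, was higher, at 94.7 to 164 against 25.5 to 44.7. Of 15 thioredoxin and peroxiredoxin genes 4 were lower and 2 higher, against 13.5% lower and 12.9% higher over all genes tested. Thioredoxin reductase Txnrd1 had 3095, 2761, 2368 and 3848 against 5658, 4302, 4080 and 4988, and peroxiredoxin Prdx1 was 1.44-fold higher in the KEAP1-deficient libraries. No thioredoxin gene was called higher without homozygote library 2 or 4 or KEAP1-deficient library 1, 2 or 4, and 3 or 4 were lower in each fit that left out 1 library.

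Among 12 genes of heme breakdown and iron, 6 were lower and 1 higher. The ferritin subunits Fth1 and Ftl1 were 1.73-fold and 1.62-fold higher in the KEAP1-deficient libraries (adjusted p = 0.000401 and 0.00015). Fth1 in the homozygotes, with a mean of 10800, was close to wild type at 11770. Of 10 genes listed for NADPH supply 2 were lower, against 13.5% of all genes tested. Tkt, transketolase of the pentose phosphate route, had log2 fold change -0.43 (adjusted p = 0.00542) and cytosolic isocitrate dehydrogenase Idh1 -0.55 (adjusted p = 0.0049).

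Aldo-keto reductases, which reduce aldehydes and ketones, differed in 1 direction. Of 11 tested, 6 were lower in the homozygotes and 0 higher, with a median of -0.59. Akr1b8 had 1330, 1550, 1286 and 1184 normalised reads against 5574, 3903, 3740 and 4811, a 3.37-fold gap (log2 fold change -1.74, SE 0.21, adjusted p = 2.42e-05), with wild type at 318. Akr1c19 had 33.1 to 58.1 against 320 to 341 and a wild-type mean of 1.60, and Akr1b3 was 1.52-fold higher in the KEAP1-deficient libraries. Copies within this family are similar in sequence, so how reads were divided between them is uncertain.

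Quinone, carbonyl and conjugation enzymes went the other way: 11 of 20 were higher in the homozygotes and 1, Ugt2b34, was lower, with a median of 0.56. Cyp2s1, an epithelial cytochrome P450, had 2743, 2285, 2426 and 3116 against 736, 602, 707 and 827, a 3.68-fold gap (adjusted p = 5.52e-06). Wild type was higher than both, at 6468. Ces1d, a carboxylesterase, was 2.55-fold higher and Ugt1a6a, a glucuronosyltransferase, 1.64-fold higher. Among 15 aldehyde dehydrogenases 6 were higher and 4 lower. Aldh3a1, abundant in surface epithelia, had 31700, 30920, 23820 and 43610 against 11050, 12030, 10610 and 8593 (log2 fold change 1.60, adjusted p = 8.24e-06). Retinaldehyde dehydrogenases divided, with Aldh1a1 2.77-fold higher in the homozygotes and Aldh1a3 4.20-fold higher in the KEAP1-deficient libraries. Of 22 glutathione transferases 5 were higher and 2 lower, with Gstm2 1.77-fold and Gstm6 1.66-fold higher. That list had 8 higher and 1 lower without homozygote library 3. The aldehyde dehydrogenase list had 2 lower without homozygote library 2 or KEAP1-deficient library 4. Of 10 ABC exporters 2 were higher. Of 31 proteasome subunits 2 were higher and 3 lower, and 5 were lower and 1 higher without homozygote library 4. Over all genes tested 12.9% were higher and 13.5% lower, so the ABC exporter and proteasome counts do not set those lists apart.

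Promoter sequence was set beside these values. The motif searched was TGACNNNGC, the core of the antioxidant response element, on both strands of 300-base windows from 250 bases before to 50 after the start site (RefSeq, GRCm38.p6). It was present in 12.4% of all 32851 promoter windows and in at least 1 window of 16.4% of the 12788 tested genes that had one. Among called genes it was present for 15.7% of the 1812 that were higher and 17.7% of the 1900 that were lower in the homozygotes. Of the genes named here 88 had a window and 20 held the motif. The 250 bases before the start site are printed for 4 of them, chosen because they hold the motif, in the direction of transcription and with the motif in capitals: Nfe2l2, the gene that is mutated, at chr2:75704664-75704913 on the minus strand; Txnrd1, lower in the homozygotes, at chr10:82858956-82859205 on the plus strand; B3galt5, nearly absent from the homozygotes, at chr16:96235551-96235800 on the plus strand; and Nmu, nearly absent from the KEAP1-deficient mice, at chr5:76363778-76364027 on the minus strand.
Nfe2l2: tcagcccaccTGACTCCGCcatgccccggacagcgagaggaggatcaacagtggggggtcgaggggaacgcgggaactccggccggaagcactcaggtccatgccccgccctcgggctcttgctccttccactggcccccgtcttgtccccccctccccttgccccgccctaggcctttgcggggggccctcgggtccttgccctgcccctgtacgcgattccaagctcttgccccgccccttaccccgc
Txnrd1: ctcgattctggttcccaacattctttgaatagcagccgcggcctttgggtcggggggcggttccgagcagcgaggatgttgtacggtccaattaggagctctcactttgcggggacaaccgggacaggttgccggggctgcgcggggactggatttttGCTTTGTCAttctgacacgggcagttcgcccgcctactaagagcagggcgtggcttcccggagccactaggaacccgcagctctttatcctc
B3galt5: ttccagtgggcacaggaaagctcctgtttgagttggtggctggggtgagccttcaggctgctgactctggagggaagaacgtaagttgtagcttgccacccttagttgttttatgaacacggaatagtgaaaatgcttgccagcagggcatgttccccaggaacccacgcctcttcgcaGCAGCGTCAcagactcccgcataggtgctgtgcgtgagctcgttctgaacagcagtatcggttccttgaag
Nmu: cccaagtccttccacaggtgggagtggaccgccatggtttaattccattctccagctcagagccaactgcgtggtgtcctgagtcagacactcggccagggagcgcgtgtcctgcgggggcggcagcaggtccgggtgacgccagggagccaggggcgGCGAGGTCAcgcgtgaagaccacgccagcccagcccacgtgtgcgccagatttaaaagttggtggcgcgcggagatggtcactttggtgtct
Nfe2l2 and Nmu have 1 window each. Txnrd1 and B3galt5 have 3 each, for different start sites, and the other windows of both genes hold no match. In Nfe2l2 the match reads as searched, and in the other 3 it lies on the opposite strand. A gene lower and a gene higher in the homozygotes thus hold the same core, and a match is not evidence of binding.

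**Figure D3:**
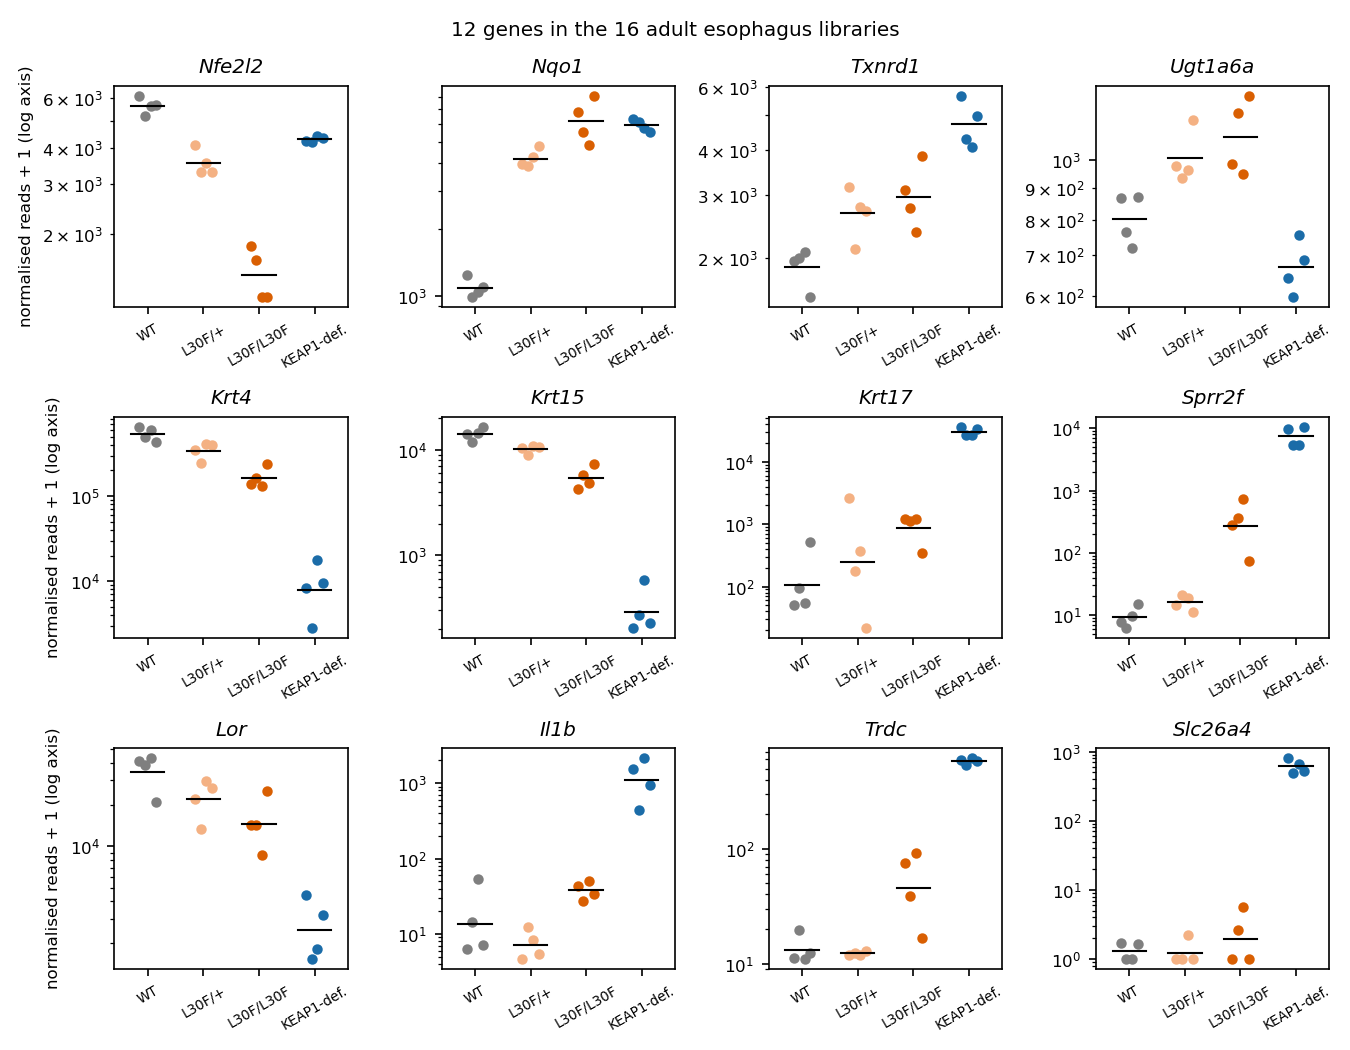
Normalised reads + 1 (y, log axis, with its own range in each panel) of 12 genes in the 16 adult libraries: wild type (WT), L30F heterozygotes (L30F/+), L30F homozygotes (L30F/L30F) and KEAP1-deficient mice (KEAP1-def.). Points are libraries and bars are means of the log values. Nqo1 overlaps between the last 2 groups, whereas Krt4 and Krt15 are higher, and Krt17, Sprr2f, Il1b, Trdc and Slc26a4 lower, in every homozygote library than in every KEAP1-deficient library.

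Keratins of the normal esophagus separated the mutants. Krt4 (ENSMUSG00000059668), the suprabasal keratin, had 139800, 164300, 131700 and 239400 normalised reads in the homozygotes and 8286, 2821, 17640 and 9485 in the KEAP1-deficient libraries, a 17.6-fold gap (log2 fold change 4.37, SE 0.40, adjusted p = 3.41e-06). Its pairing partner Krt13 was 3.21-fold higher, at 288200 to 360000 against 77610 to 116000. Krt15, a basal keratin of resting epithelium, had 4307, 5735, 4865 and 7340 against 202, 267, 575 and 226 (17.5-fold, log2 fold change 4.23, SE 0.25, adjusted p = 1.06e-07). All 3 were lower in both mutants than in wild type, whose means were 544700, 468700 and 14310. Over the list, 5 of 8 esophageal keratins were higher and 1, Krt14, was lower (median 1.99). Krt14 had 22910 to 51400 against 106600 to 121700. Krt5 did not pass the threshold (means 48950 and 61430, adjusted p = 0.102), nor did Trp63, the master regulator of squamous identity (means 4707 and 4700, adjusted p = 0.974). Limma did call Krt5 lower in a fit of the 2 groups alone (adjusted p = 0.0282) and without heterozygote library 1 (adjusted p = 0.0428). Krt14, Krt5 and Trp63 are among the markers listed for the label check.

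Stress keratins differed in degree. Krt16 had 28650, 20830, 27810 and 10940 against 92410, 82590, 89330 and 99100, with wild type at 122, a 4.12-fold gap (log2 fold change -2.13, SE 0.41, adjusted p = 0.00171). Krt17 had 1229, 1139, 1198 and 338 against 35810, 26830, 26700 and 33040, a 31.3-fold gap (log2 fold change -5.13, SE 1.15, adjusted p = 0.00538). Krt6a and Krt6b, named after their values were seen, were lower in all 4 homozygote libraries than in all 4 KEAP1-deficient libraries, but the 4-group fit did not call them (log2 fold change -0.79 and -0.64, adjusted p = 0.196 and 0.247). A fit of the 2 groups alone called both (adjusted p = 0.002 and 0.0465). Homozygote library 4 was lowest in each of the 4 genes. Krt10, a keratin of cornifying epidermis, stood apart from the others, at 2835, 3598, 1208 and 4667 against 676, 99.8, 91.6 and 126. Wild type had 315, so Krt10 was called higher than wild type in the homozygotes (log2 fold change 3.23, adjusted p = 0.0028) and not in the KEAP1-deficient mice (-0.81, adjusted p = 0.32). Without KEAP1-deficient library 1 the direct log2 fold change of Krt10 was 4.70 in place of 4.03.

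Genes of the cornified envelope, the crosslinked protein shell of surface squamous cells, differed by family. Of 13 small proline-rich (SPRR) genes 11 were lower in the homozygotes and 0 higher, with a median log2 fold change of -3.03. Sprr2f had 276, 366, 741 and 73.2 against 9787, 5424, 5418 and 10460, with wild type at 8.70 (21.3-fold, log2 fold change -4.76, adjusted p = 1.76e-05). Sprr2e was 23.9-fold higher in the KEAP1-deficient libraries. Without homozygote library 4, lowest in both genes, these 2 fold changes were -4.13 and -4.35 in place of -4.76 and -5.02. The SPRR count was between 6 and 11 when 1 library was left out, and 6 or 7 without wild-type library 2, without homozygote library 1, 2 or 4, or without any 1 KEAP1-deficient library. Trichohyalin, Tchh, had 131, 129, 448 and 62.8 against 3406, 2799, 2581 and 3987 (16.6-fold).

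Late cornified envelope (LCE) genes went the other way. Of 21 LCE genes 14 were higher in the homozygotes and 0 lower, with a median of 1.07, and all 14 belong to the LCE1 group. Lce1j had 655, 635, 436 and 1097 against 144, 135, 110 and 208 (4.73-fold, adjusted p = 1.36e-05), and Lce1m was 5.71-fold higher. SPRR and LCE genes are near-identical copies, so reads may be divided between them wrongly. Loricrin, Lor, the main envelope protein of cornified layers, had 14290, 14150, 8688 and 25100 against 4411, 1532, 1819 and 3171 (5.69-fold, adjusted p = 0.000284). Flg, filaggrin, was 24.7-fold and Rptn, repetin, 2.79-fold higher. Wild type exceeded both mutants in all 3 means, at 36070, 5477 and 115300. Of 20 transglutaminase and envelope scaffold genes 8 were higher and 3 lower, the last including the crosslinking enzyme Tgm1, 1.98-fold higher in the KEAP1-deficient libraries. The metallothionein of squamous epithelium, Mt4, had 8157, 7228, 6073 and 10020 against 972, 1408, 1310 and 899, while wild type had 8558 (log2 fold change 2.78, SE 0.15, adjusted p = 2.24e-08).

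Proteases and their inhibitors of the upper layers were divided. Of 12 clade B serpins, intracellular inhibitors of serine and cysteine proteases, 7 were higher and 0 lower. Serpinb3c had 4210, 5089, 6726 and 2495 against 45.8 to 410 (23.2-fold), Serpinb7 was 6.24-fold and Serpinb12 3.23-fold higher. Of 11 kallikrein and SPINK5 genes, 6 were lower and 1 higher, with Klk6 at 147 to 197 against 454 to 1391 and wild type at 11.7.

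Of 26 transcription factors of the squamous lineage 4 were higher and 4 lower (median 0.01), shares near the 12.9% and 13.5% over all genes. The esophageal factors Barx2, Pax9 and Sox2 were higher in the homozygotes. Barx2 had 1892, 1787, 1576 and 2009 against 560, 584, 674 and 451 (log2 fold change 1.69, SE 0.13, adjusted p = 7.33e-07), and Pax9 and Sox2 were 1.89-fold and 1.90-fold higher. Wild type was above both mutants in each, with means of 2935, 4558 and 1130. The 4 that were lower were Elf3, Ehf, Elf5 and Tfap2c. EGF receptors and their ligands were also divided. Of 13 genes 2 were higher, the ligand gene Egf and the receptor gene Erbb4. The 4 that were lower, Hbegf, Tgfa, Epgn and Nrg1, are ligand genes. That count was 2 without homozygote library 3 or 4 or KEAP1-deficient library 1, 2 or 4. Egf was 3.31-fold higher in the homozygotes and Hbegf was 5.65-fold higher in the KEAP1-deficient libraries.

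**Figure D4:**
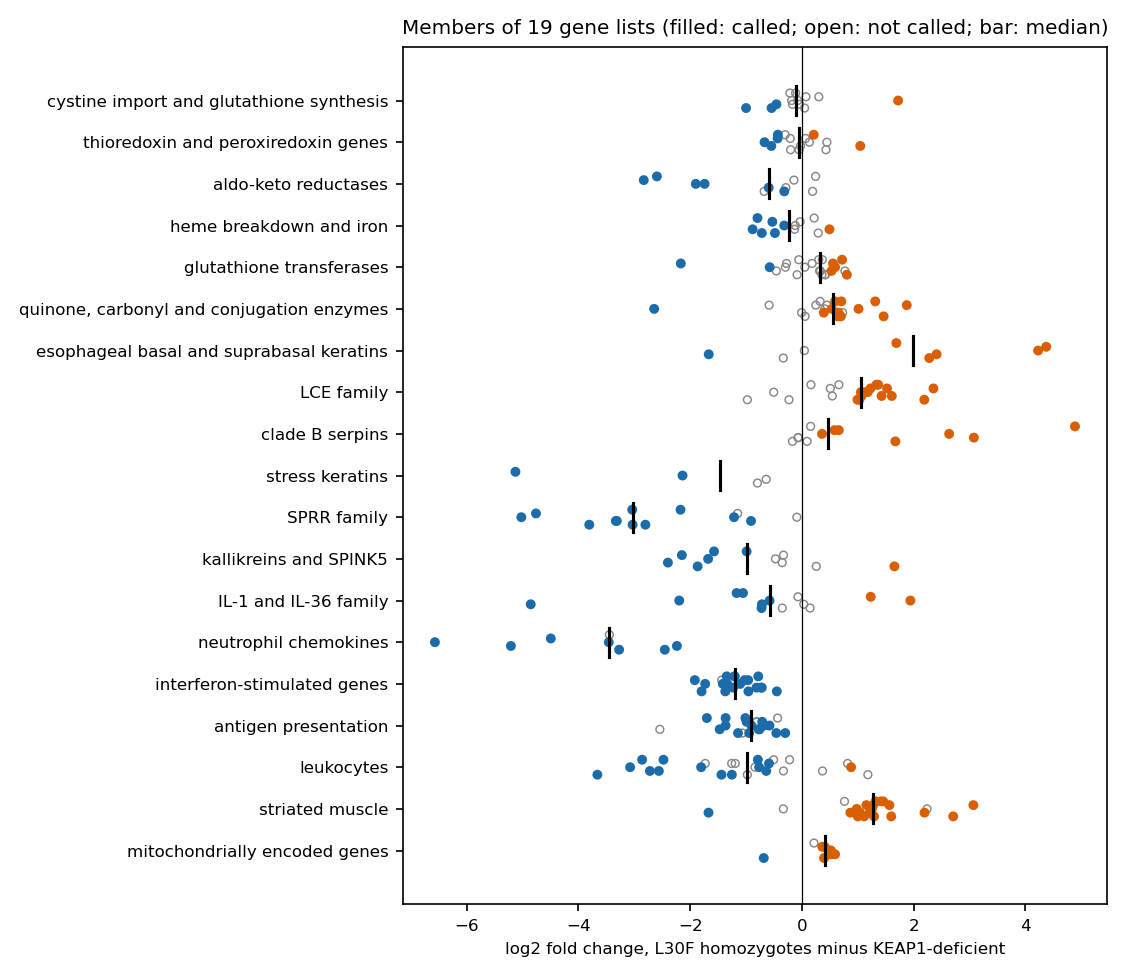
Log2 fold change (x, homozygotes minus KEAP1-deficient) of each tested member of 19 gene lists (y). Filled points are called genes, orange for higher and blue for lower in the homozygotes, open points are not called, and bars are list medians. The SPRR and neutrophil chemokine lists have medians of -3.03 and -3.45, the esophageal keratins 1.99 and striated muscle 1.27.

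Many inflammatory genes were lower in the homozygotes than in the KEAP1-deficient mice. Of 8 neutrophil chemokine and receptor genes 7 were lower and 0 higher, with a median of -3.45. Against wild type, 0 of these 8 were called in the homozygotes, whereas 7 were called higher in the KEAP1-deficient mice. Of 13 IL-1 and IL-36 genes, 2 were above and 1 below wild type in the homozygotes, against 7 and 4 in the KEAP1-deficient mice. Cxcl3, a neutrophil attractant, had 0, 0, 0 and 3.49 against 227, 40.7, 293 and 129. With 2 reads in all in the homozygotes against 1021, the ratio was 219, with a 95% counting interval of 60.6 to 1810 that covers counting error only. Cxcl2 had 1.58, 3.32, 7.64 and 31.4 against 406, 126, 388 and 287 (log2 fold change -5.21, SE 0.91, and -5.91 without homozygote library 4). Il1b, the cytokine IL-1 beta, had 42.6, 26.5, 48.9 and 33.1 against 1562, 443, 2154 and 950 (33.8-fold, log2 fold change -4.85, SE 0.60, adjusted p = 4.12e-05). Of 13 IL-1 and IL-36 genes, 7 were lower and 2 higher. The receptor antagonist Il1rn was 4.35-fold higher in the KEAP1-deficient libraries and Il18, made by resting epithelium, 4.09-fold higher in the homozygotes.

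Antimicrobial proteins followed, with 8 of 14 lower and 1 higher. S100a8, a calprotectin subunit named after its values were seen, varied widely among the homozygotes, at 2429, 1859, 10030 and 131, yet stayed under the 24570 to 28910 of the KEAP1-deficient libraries (log2 fold change -4.06, SE 1.05, adjusted p = 0.0121). The S100a8 value was -4.96 without homozygote library 3 and -2.87 without library 4. The defensin Defb14 was 6.48-fold higher in the KEAP1-deficient libraries, and Defb4 was the exception, at 2227 to 3961 in the homozygotes against 690 to 1070. Lactoferrin, Ltf, had 18.9, 13.3, 157 and 5.23 against 1695, 1303, 3051 and 1667 (log2 fold change -6.31, SE 1.82, adjusted p = 0.0214). The call for Ltf ended without homozygote library 2 or 4 or without KEAP1-deficient library 3 (adjusted p 0.0506, 0.0578 and 0.055), and its log2 fold change was -7.24 without homozygote library 3 and -5.69 without library 4. Mmp9, a neutrophil and wound protease, was 8.60-fold higher in the KEAP1-deficient libraries. Acod1, an enzyme of activated myeloid cells, had 0 to 10.5 against 97.5 to 438 (log2 fold change -5.95, and -5.30 without homozygote library 2).

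Of 20 interferon-stimulated genes 19 were lower in the homozygotes and 0 higher, with a median of -1.20. Irf7, an interferon regulatory factor, had 185, 148, 197 and 120 against 353, 585, 626 and 736 (3.54-fold, adjusted p = 9.48e-05), and Ifit3 was 2.51-fold higher in the KEAP1-deficient libraries. Against wild type, the homozygotes had 7 of these 20 genes called higher and the KEAP1-deficient mice 18, neither having any called lower. Of 21 antigen presentation genes 16 were lower and 0 higher, with a median of -0.90. B2m, the light chain of MHC class I, had 2814, 2671, 3334 and 2654 against 4309, 5073, 6024 and 6148, and H2-K1, a heavy chain, was 1.92-fold higher in the KEAP1-deficient libraries.

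The leukocyte genes named by the rule were lower too. Ptprc, which encodes the pan-leukocyte antigen CD45, had 787, 610, 1192 and 401 against 1790, 1839, 2012 and 1876 (2.51-fold, adjusted p = 0.00083). Trdc, the constant region of the T cell receptor delta chain, had 74.2, 38.1, 90.2 and 15.7 against 593, 537, 616 and 577 (10.7-fold, log2 fold change -3.66, SE 0.38, adjusted p = 6.69e-06). Cd3d, a chain of the T cell receptor complex, had 0 to 9.17 against 35.9 to 47.3 (log2 fold change -3.07, and -2.31 without homozygote library 4). Il17a, a cytokine made by such T cells and named after its values were seen, had 1.58, 1.66, 7.64 and 0 against 113, 44.7, 80.3 and 64.0. The part of immune cell number in the chemokine, interferon and antigen presentation differences was not tested.

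Of the genes with the largest falls, those in this paragraph had wild-type means of at most 10.0 normalised reads. Slc26a4, the anion exchanger pendrin, had 0, 1.66, 4.59 and 0 in the homozygotes and 804, 496, 660 and 520 in the KEAP1-deficient libraries, with 4 reads in all against 3642 (397-fold, log2 fold change -8.28, SE 0.51, adjusted p = 5.75e-08). Tgm6, a transglutaminase, had no read in any homozygote, wild-type or heterozygote library and 419, 223, 176 and 389 in the KEAP1-deficient libraries. It was at least 61.8-fold lower in the homozygotes, taking 3 reads per library as the floor (adjusted p = 2.34e-09). Csn1s1, a casein gene, was likewise without reads in the homozygotes, against 106, 39.1, 120 and 146, and at least 21.0-fold lower. B3galt5, a galactosyltransferase, had 1.74 to 6.11 against 269 to 475 (91.8-fold), and Cldn7, a claudin of tight junctions, had 0 in 3 homozygote libraries and 9.17 in the other, against 104 to 152. Without homozygote library 3 the log2 fold change of Cldn7 was -6.98 in place of -6.14. Uox, urate oxidase, had 50.5, 38.1, 365 and 17.4 against 2941, 2851, 3419 and 3509 and a wild-type mean of 0.95 (27.0-fold), and -6.57 in place of -5.71 without homozygote library 3.

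Other genes were nearly lost from the KEAP1-deficient mice. Nmu, the peptide neuromedin U, had 47.3, 71.3, 38.2 and 80.2 in the homozygotes and 1.69, 1.60, 0 and 0.728 in the KEAP1-deficient libraries (59.0-fold, log2 fold change 4.95, SE 0.32, adjusted p = 1.12e-07), with wild type at 204. Cyp2a5, a cytochrome P450, had 112, 86.2, 18.3 and 155 against 0 to 2.25, with wild type at 455 (log2 fold change 5.45, adjusted p = 0.000298). Limma-voom did not call Cyp2a5 (adjusted p = 0.313), and its log2 fold change was 6.10 without homozygote library 3 in place of 5.45. Tmem45a2, a membrane protein gene, was 14.3-fold higher, at 39.7 to 66.2 against 0.751 to 9.46. Idi2, an isopentenyl diphosphate isomerase, had 58.4, 59.7, 22.9 and 371 against 0 to 3.64, and its log2 fold change of 4.99 was 4.22 without homozygote library 4. The ribosomal pseudogenes Rpl3-ps1 and Rpl15-ps3 share reads with their parent genes and are uncertain. Rpl3-ps1 had 8608, 8362, 4041 and 4350 against no read, at least 2976-fold higher by the same floor, and was called by limma (adjusted p = 0.000874) but not by limma-voom (adjusted p = 0.217). Rpl15-ps3 had 0, 179, 0 and 0 against 237 to 786 (adjusted p = 0.0418), and that call ended in 10 of the 16 fits that left out 1 library. The 10 were those without wild-type library 2, 3 or 4, homozygote library 1, 3 or 4, or any KEAP1-deficient library, with adjusted p from 0.0502 to 0.1. Its log2 fold change was -8.89 without homozygote library 2 and -6.39 without library 1, 3 or 4, in place of -7.02.

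Metabolic and growth lists were also counted. Of 19 glycolysis genes 7 were lower and 2 higher, with a median of -0.15. Of 11 immediate early genes 6 were lower (median -0.57), and 3 without KEAP1-deficient library 1 or 3. Of 24 cholesterol and fatty acid synthesis genes 9 were lower and 0 higher (median -0.29), among them Nsdhl and Hsd17b7, enzymes of late cholesterol synthesis, and Acly, which makes cytosolic acetyl-CoA, each 1.44-fold to 1.53-fold higher in the KEAP1-deficient libraries. Of 24 cell cycle genes 6 were lower and 1 higher (median -0.36), against 13.5% lower and 12.9% higher over all genes. Ccne1, cyclin E1, had 96.3 to 129 against 160 to 202. Rrm2, a subunit of ribonucleotide reductase, had 337 to 478 against 525 to 779, and its call ended without homozygote library 2 or KEAP1-deficient library 1 or 4 (adjusted p 0.0673, 0.063 and 0.0503). The cell cycle count was 13 lower and 2 higher in the fit of the 2 groups alone and at least 2 lower in every fit that left out 1 library. It was 2 or 3 lower without homozygote library 2, 3 or 4 or KEAP1-deficient library 1, 2 or 4.

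Some genes lay on opposite sides of wild type in the 2 mutants. Such a gene was called in the direct comparison and called against wild type in opposite directions in the 2 mutants, and there were 36. These genes were ranked by the largest adjusted p among the direct comparison and the 2 against wild type. The 6 with the smallest such value were Csta1, Gpr35, Soat2, Acsl3, Actn2 and Gm94. Csta1, a cystatin of the envelope, had 693 to 971 in the homozygotes and 2127 to 3127 in the KEAP1-deficient libraries around a wild-type mean of 1277. The receptor gene Gpr35 had means of 247 and 681 around 425, the cholesterol acyltransferase Soat2 14.4 and 59.3 around 32.1, and the acyl-CoA synthetase Acsl3 333 and 495 around 411. The other 2 were higher in the homozygotes: Actn2, a muscle actinin, had means of 15580 and 7197 around 10000, and the gene model Gm94 9893 and 3136 around 5356.

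The same contrast was measured in pups, in libraries that share none with the adult comparison. Of 21007 genes 875 were called in pups (4.17%), 370 higher and 505 lower in the homozygotes. With another scaling (TMM) the split was 407 higher and 371 lower, and with the Y-linked gene Ddx3y as a covariate it was 450 and 393. Pup homozygote library 3 had no read of Ddx3y and high Xist, unlike the other 8 pup libraries. That count fell to between 47 and 392 when wild-type library 2 or 3, homozygote library 1 or 2, or any KEAP1-deficient library was left out, so it rests on few libraries. The adult and pup log2 fold changes were nearly unrelated across 19031 genes (Pearson r = 0.0169, Spearman rho = 0.0195), as the plot of both contrasts shows. Among genes called at both ages, 146 went the same way and 130 the opposite way. The 146 were 2.89% of the adult calls tested in pups and 17.1% of the pup calls tested in adults. The difference between adult and pup fold changes was called for 3516 of the 19031 genes (18.5%), 1971 more positive and 1545 more negative in adults. Age, Cre driver and time since recombination differ between the 2 experiments and cannot be told apart.

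**Figure D5:**
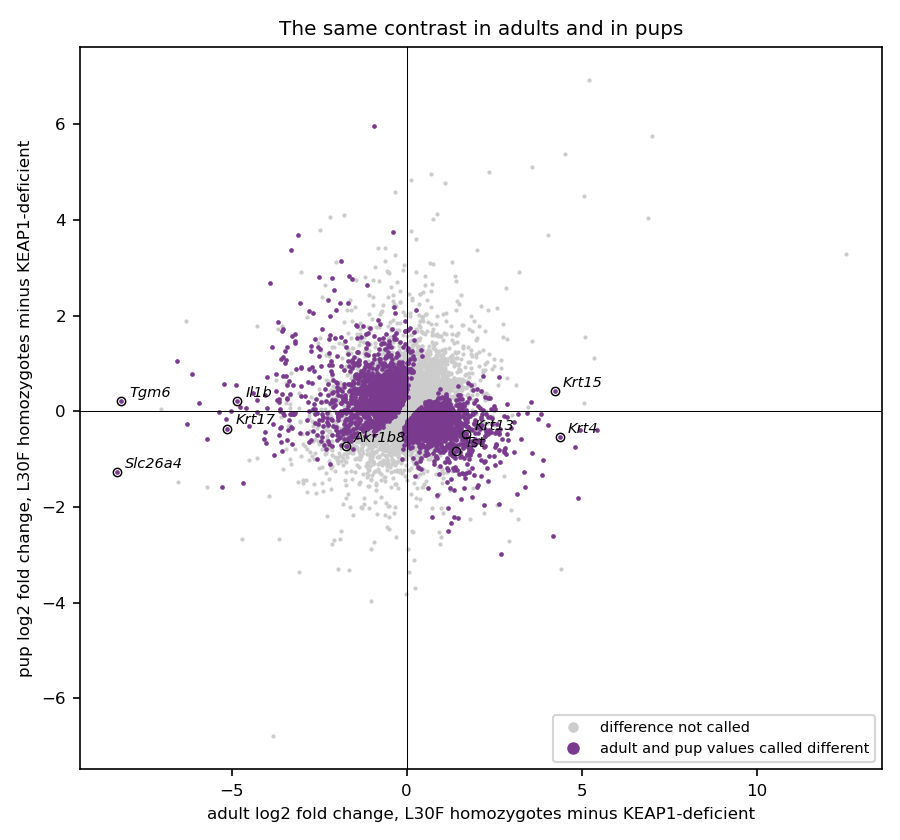
Log2 fold change of L30F homozygotes minus KEAP1-deficient mice in adults (x) and in pups (y), 1 point per gene tested at both ages. Purple points are the 3516 genes whose adult and pup values were called different. Krt4, Krt15, Il1b and Slc26a4 are called in adults and not in pups.

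The genes in this paragraph were picked from the 146 called the same way at both ages, beside 130 called in opposite ways. Pup calls of single genes were not tested with libraries left out. Akr1b8 and Akr1b3 were among the genes lower in the homozygotes at both ages. In pups their log2 fold changes were -0.72 (adjusted p = 0.0088) and -0.73 (adjusted p = 0.0043), and in adults -1.74 and -0.59. Tgm1 was -0.98 in adults and -0.60 in pups, Sqor, a mitochondrial sulfide oxidase, -0.50 and -0.55, and the membrane gene Rab5if -0.44 and -0.51. Genes higher at both ages included Irs1, the adaptor of insulin signalling (0.69 in adults and 0.51 in pups), the transcription factor Sox11 (0.70 and 1.04), Ccdc141 (0.62 and 1.11) and Mtss2 (0.82 and 0.52).

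The 6 genes with the smallest adjusted p for the age difference were Barx2, Krt13, Mfap3l, Sema6c, Tst and Tgm6. Barx2 was 1.69 in adults and -0.46 in pups, a difference of 2.15 (SE 0.16, adjusted p = 7.1e-09). Krt13 was 1.69 and -0.48, Mfap3l 1.28 and -0.59, and Tst, a mitochondrial sulfurtransferase, 1.42 and -0.83, so these 4 were called in opposite directions at the 2 ages. The semaphorin gene Sema6c was 1.44 in adults and -0.26 in pups, where it was not called. Tgm6 was not called in pups (adjusted p = 0.80). Of the 8 esophageal keratins 0 were higher and 2 lower in pup homozygotes. Of 20 interferon-stimulated genes 0 were called in pups, and of 22 striated muscle genes 1 was higher. Over all genes tested in pups 4.17% were called, so the interferon and muscle counts do not set those lists apart.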

How the data were processed

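RNA of whole esophagus was sequenced from 25 libraries. Per the labels' protocols, total RNA was made into directional libraries with an MGIEasy kit. Salmon and the GRCm39 build are named in the submitters' processing notes, but no Salmon version is (not given in the sources used here). Per gene, the authors deposited log2 values, 1 table for adults and 1 for pups. Every deposited value came out as log2(normalised reads + 4), and whole reads were recovered for 100% of the values checked in each library (within 0.1 read, up to 1000 reads).

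From these, log2(normalised reads + 1) was tested with limma 3.58.1 (R 4.3.3) with trended, robust moderation (statmod 1.5.0), over all 4 adult or all 3 pup groups. Genes needed a normalised value of 1 in at least 4 adult or 3 pup libraries. Calls were Benjamini-Hochberg adjusted p under 0.05. The difference between ages combined the 2 fits, made separately for each table by limma, with Welch-Satterthwaite degrees of freedom. Depths were 10.9 to 32.3 M reads in adults and 18.8 to 19.7 M in pups. In a test on simulated data for the direct comparison, 78% of 2-fold and 89% of 4-fold changes were recovered. The calls held 15 unchanged genes, 8.24% of them. Only 200 genes were changed there, against 5248 called in the data, so the error rate of the real comparison is not given by this test. Other steps used Python 3.11.15.

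The comparison, its 53 gene lists and the tests were chosen with earlier results of these data known. Named genes were Nfe2l2, Keap1 and Nqo1, the 10 largest rises and 10 largest falls without overlap, up to 3 called genes of each list, up to 6 on opposite sides of wild type, up to 5 in each direction shared with pups and 6 for the age difference. Not all of these are described, and exceptions are stated. Alternatives were the offset, filter, scaling, test, depth, groups fitted, covariates, replicate block and libraries left out.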

Additional observations from a re-analysis of the deposited data

Results flagged for a closer look

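In 13 of 229 sets of 4 libraries, each set being 1 named gene in 1 genotype, a single library stood apart from the other 3 by Dixon's 95% criterion, and chance alone gives about 1 in 20. In the homozygotes the highest library stood apart for Cxcl3 (3.5 normalised reads), Ltf (157.4), Uox (365.3), Cldn7 (9.2), Rpl15-ps3 (179.1), Idi2 (371.4), mt-Nd2 (14710) and Rab5if (930.7), and the lowest for Krt17 (338.2) and Mfap3l (2464). In the KEAP1-deficient mice the highest library stood apart for Gsr (3896) and Krt10 (676.1), and the lowest for Ccne1 (159.9).

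The log2 fold change of homozygotes against KEAP1-deficient mice was called different between adults and pups for 77 of 115 named genes. Of these, 41 had a more positive and 36 a more negative value in adults. The test was that of the age difference described above. Over all genes tested at both ages 18.5% were called. Most named genes were chosen by their adult values and 6 by the age difference itself, which raises their share. Each value is the adult minus the pup log2 fold change. Among genes of the NRF2 pathway and detoxification the difference was positive for Nfe2l1 (0.95), Ugt1a6a (1.18), Ces1d (1.31), Cyp2s1 (2.27), Aldh3a1 (2.05), Aldh1a1 (1.93), Gstm2 (0.99), Gstm6 (0.99), Abcb6 (1.06) and Cbs (1.78). It was negative for Nfe2l2 (-0.96), Gsr (-0.73), Akr1b8 (-1.02), Akr1c19 (-3.44), Prdx1 (-0.68), Fth1 (-0.52) and Aldh1a3 (-2.59). Among keratins and cornified envelope genes the difference was positive for Krt4 (4.92), Krt13 (2.17), Krt15 (3.80), Krt10 (4.31), Lce1m (2.78), Lce1j (2.79), Lor (3.0), Flg (5.55), Serpinb3c (6.71), Serpinb7 (3.45), Serpinb12 (2.14) and Mt4 (3.59). It was negative for Krt14 (-1.33), Krt16 (-1.40), Krt17 (-4.76), Sprr2e (-5.02), Sprr2f (-4.85), Tchh (-4.78) and Csta1 (-1.35). Among squamous transcription factors and growth factors the difference was positive for Barx2 (2.15), Pax9 (1.15), Sox2 (1.12) and Egf (2.62). It was negative for Hbegf (-1.84). Among inflammatory and immune genes the difference was positive for Il18 (2.58) and Defb4 (2.66). It was negative for Il1b (-5.07), Il1rn (-1.08), Cxcl2 (-5.78), Cxcl3 (-7.61), Cxcr2 (-1.98), S100a8 (-3.48), Defb14 (-2.27), B2m (-1.16), H2-K1 (-0.54), Ptprc (-1.55), Trdc (-3.91), Mmp9 (-3.16) and Acod1 (-6.13). Among muscle, nerve, matrix and mitochondrial genes the difference was positive for Ckm (2.08), Mb (4.15), Tnni2 (1.80), Nos1 (2.43), Actn2 (0.80) and mt-Nd2 (0.66). It was negative for Col1a1 (-1.31). Of the remaining genes it was positive for Cyp2a5 (5.83), Nmu (5.34), Tmem45a2 (4.93), Gm94 (2.35), Mfap3l (1.87), Sema6c (1.70) and Tst (2.25), and negative for Slc26a4 (-7.01), Tgm6 (-8.37), B3galt5 (-6.02), Cldn7 (-6.93), Gpr35 (-1.43), Soat2 (-1.67) and Acsl3 (-0.70).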

How the results depend on the processing

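The direct adult comparison called 5248 genes, and a 2-fold minimum left 1713 and the striated muscle covariate 76. Against wild type, a 2-fold minimum left 1167 of 4420 genes for the homozygotes and 3515 of 9290 for the KEAP1-deficient mice, for which the muscle covariate left 3286. The pup count of 875 was 148 with a 2-fold minimum (118 higher and 30 lower) and 185 in a fit of the 2 groups alone (49 higher and 136 lower). The age difference fell from 3516 to 1517 genes with a 2-fold minimum. Leaving out 1 library gave 4097 to 5699 genes in the direct comparison, 3057 to 4984 and 8246 to 9669 against wild type, 47 to 924 in pups and 2953 to 3910 for the age difference. Apart from the replicate block in pups, given next, the other alternatives stayed within 1.5 times each count, and fewer genes were called under a fold minimum by construction. The cause of the other shifts was not tested.

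Same-numbered homozygote and KEAP1-deficient libraries deviated together with correlations of 0.032, 0.015, 0.093 and 0.14, so the numbers were not taken as pairs. With the replicate block 5096 genes were called in the direct comparison, 4317 and 9178 against wild type and 222 in pups.

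Of 3357 combinations of a named gene and an alternative, 3209 kept their side of the threshold, 144 lost the call and 4 gained it. In 0 did a called gene reverse direction. Genes called in neither fit could change sign and still count among the 3209, as Nqo1, Gclc and Trp63 did. Of 109 called genes 106 stayed called whichever adult library was left out, the exceptions being Ltf, Rpl15-ps3 and Rrm2. Larger offsets shrank the fold changes of low genes, Slc26a4 from -8.28 to -6.60 with an offset of 5. Depth limits genes with few reads in the homozygotes, such as Cxcl3 and Slc26a4.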
